A study of Mus musculus with 48 samples.

Results

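Transgenic MKOS MEFs were compared with the E-CAD+ 2NG- cells obtained from them during reprogramming, which are the libraries labelled 2N- (Ecad+) MKOS. These cells have gained E-cadherin on their surface and carry low CD44 and low ICAM1, while their Nanog-GFP reporter is still off. The comparison holds 5 of the 48 libraries of the series, 2 of MKOS MEFs and 3 of E-CAD+ 2NG- cells, and every transcript row of the count table was used. The mouse embryonic fibroblasts (MEFs) carry MKOS, a single doxycycline-inducible transcript that encodes Myc, Klf4, Oct4 (gene Pou5f1), and Sox2 and is followed by mOrange. The cassette and an rtTA activator under the CAG promoter lie in an intron of Sp3, in descendants of TNG embryonic stem cells (ESCs), in which GFP replaces 1 Nanog allele. All 5 libraries share these alleles. The fibroblasts came from chimeric embryos and were diluted with wild-type MEFs for reprogramming, so host cells can be present in a preparation. According to the labels, E-CAD+ 2NG- cells had been kept in doxycycline and vitamin C and were CD44-, ICAM1-, and Nanog-GFP-, whereas MEFs and ESCs had been kept in GMEM with LIF. The study's methods instead place MEFs in a medium with FGF2 and heparin. They name LIF for the ESC medium, which was also used for reprogramming. The series text gives day 10 for the sort and the culture label gives 10 or 15 days. Doxycycline, vitamin C, medium, time, and the surface gate all differ between both groups together, and their parts in a difference cannot be told apart. For reference, levels in the 2 libraries of TNG MKOS ESCs, which carry the cassette in the pluripotent state, are given beside them. The 2 OKMS MEF libraries and 3 E-CAD+ 2NG- libraries made with OKMS, a cassette with the factors in another order, are given as well. According to the study, the Klf4 of OKMS is also shortened at its N terminus. In such cassettes this form gave less KLF4 protein than the long Klf4, which MKOS carries.

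Fibroblasts are mesenchymal cells that spread singly, build actin stress fibers, and secrete a collagen matrix. Early in reprogramming they pass through a mesenchymal-to-epithelial transition (MET), in which E-cadherin, tight junctions, and keratins replace this program, and the transcription factors of the SNAI, TWIST, and ZEB families that repress epithelial genes are lost. The network of pluripotency factors around Oct4, Sox2, Nanog, and Esrrb is established later and is complete in ESCs.

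The 5 libraries held between 4513943 and 9802465 reads on transcripts and between 13387 and 14369 transcripts with at least 1 read. Levels are given as CPM, the count divided by the transcript reads of the library and scaled to 1000000, and are not divided by transcript length, and 3 reads, the smallest level considered detectable, correspond to 0.306 to 0.665 CPM. The log2(CPM + 1) values of libraries of the same group correlated across genes with r between 0.970 and 0.980, yet their counts differed by more than sampling noise, with a chi-square of 14.7 to 32.0 per degree of freedom. Replicate 3 of the E-CAD+ 2NG- cells stood apart from replicates 1 and 2 in several gene groups, including markers of macrophages, and this is described where it touches a result.

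Of 15630 genes tested, 4214 (27.0%) differed between MKOS MEFs and E-CAD+ 2NG- cells at an FDR of at most 0.05, where FDR is the Benjamini-Hochberg adjusted p of edgeR's quasi-likelihood test. Of these, 2342 (15.0%) were higher and 1872 (12%) were lower in E-CAD+ 2NG- cells, and these are the genes called in what follows. The median fold change was 3.48-fold among the higher genes and 5.52-fold among the lower ones. More than 16-fold differences were fitted for 552 higher and 457 lower genes. In 325 of the higher genes both MEF libraries held no read, and in 150 of the lower genes all 3 E-CAD+ 2NG- libraries held none. The genes called higher took 9.86% and 10.4% of the transcript reads in the MEF libraries and 24.6%, 26.3%, and 27.6% in the E-CAD+ 2NG- libraries. Those called lower went from 27.7% and 29.5% of the reads to between 8.37% and 10.3%. With a test against a 2-fold difference in place of any difference, 1010 higher (6.46%) and 841 lower genes (5.38%) were called. The count also rested on the small number of libraries, as 2573 genes were called without MKOS MEF replicate 2.

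**Figure D1:**
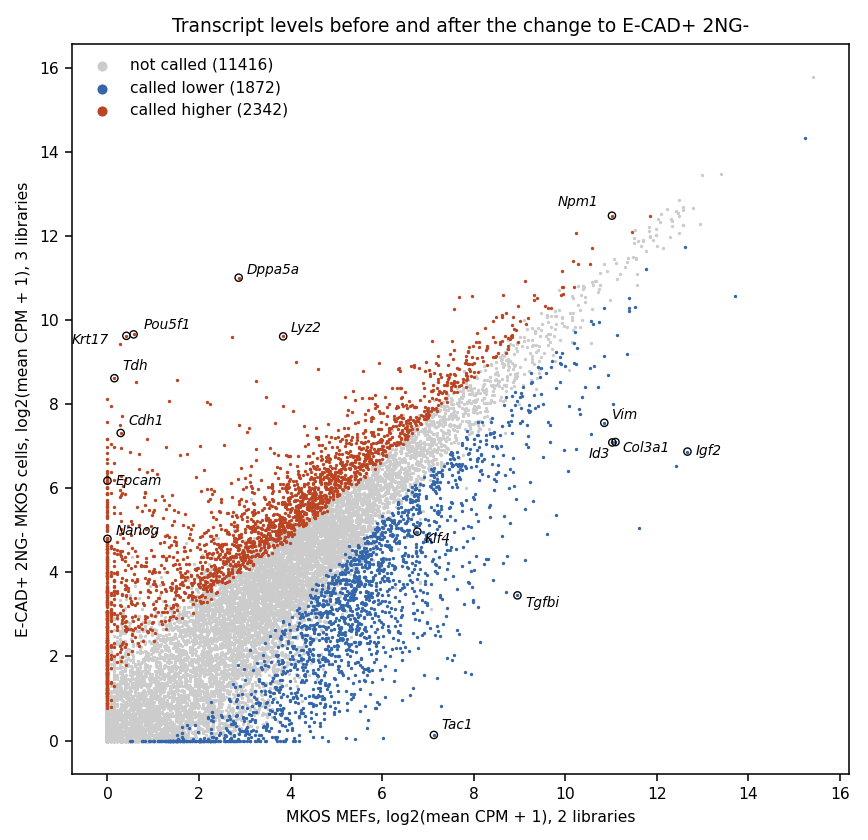
Mean level of each of 15630 genes in 2 libraries of MKOS MEFs (x axis) and 3 libraries of E-CAD+ 2NG- MKOS cells (y axis), both as log2(mean CPM + 1), with 2342 genes called higher in red, 1872 called lower in blue, and 11416 genes not called in gray. Circles mark named genes, among them Pou5f1, Krt17, and Dppa5a far above the diagonal and Igf2, Tgfbi, and Tac1 far below it.

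The genes behind the surface gate came first, as they bear on the labels. Cdh1, which encodes E-cadherin, measured 0 and 0.443 CPM in the MEF libraries and 158, 161, and 156 CPM in the E-CAD+ 2NG- libraries. It was thus near absent in both MEF libraries and at a similar level in all 3 sorted ones, which was also the level of ESCs (mean 167 CPM). Icam1 measured 36.0 and 30.8 CPM in MEFs and 3.98, 0, and 4.34 CPM after the gate, 12.1-fold lower (edgeR FDR = 4.99e-05). Cd44, whose protein binds hyaluronan, measured 104 and 123 CPM in MEFs and 41.1, 43.8, and 28.3 CPM in E-CAD+ 2NG- cells. The groups of Cd44 did not overlap, but the difference of -1.62 ± 0.756 (log2 fold change ± SE) was not called (edgeR FDR = 0.108), although it was called when only the libraries compared were fitted (FDR = 0.00126). Cd44 was still far above its ESC level of 0.438 CPM (edgeR FDR = 0.000174). Nanog had no read in the MEFs and measured 16.2, 18.5, and 45.8 CPM in cells sorted for an inactive Nanog-GFP reporter, at least 55.2-fold higher. Replicate 3 held the highest of these Nanog values, below the ESC mean of 61.9 CPM (edgeR FDR of the difference from ESCs = 0.0695).

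Among the 4 reprogramming factors, Pou5f1 rose most. Its levels were 0.307 and 0.665 CPM in MEFs and 857, 796, and 765 CPM in E-CAD+ 2NG- cells, a 1736-fold difference (edgeR FDR = 1.34e-14), beside 988 ± 175 CPM (SD, n = 2) in ESCs. Sox2 measured 3.89 and 7.75 CPM in MEFs and 43.4, 28.0, and 35.5 CPM in E-CAD+ 2NG- cells, 6.26-fold higher. It remained well under the ESC level of 330 ± 110 CPM (SD, n = 2), from which it differed by 3.20 on the log2 scale (edgeR FDR = 3.66e-07). Klf4 went the other way, from 103 and 114 CPM in MEFs to 28.7, 32.0, and 30.2 CPM, 3.67-fold lower (edgeR FDR = 0.000369) and next to the ESC mean of 29.8 CPM. Myc measured 37.3 and 23.3 CPM in MEFs and 42.2, 47.2, and 41.9 CPM in E-CAD+ 2NG- cells and was not called (edgeR FDR = 0.524). Reads of the cassette and of the endogenous genes cannot be told apart in these counts. The method tags the 5′ end of transcripts, and Myc comes first in the cassette transcript. How far the levels of Klf4, Pou5f1, and Sox2 include cassette RNA was not tested.

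**Figure D2:**
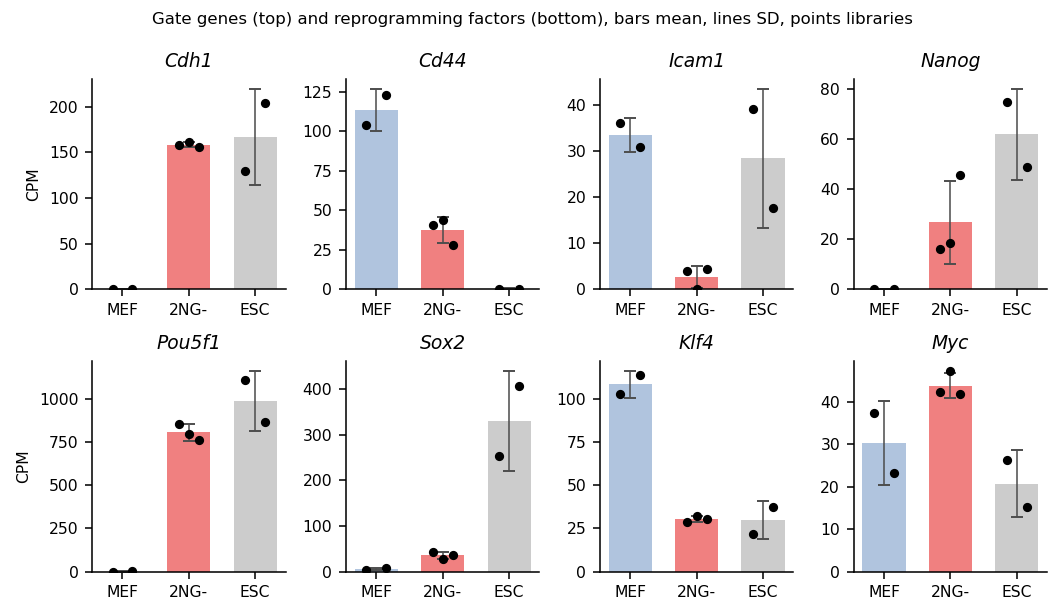
Levels in CPM (y axes, starting at 0) of the 4 genes behind the gate (top row) and the 4 reprogramming factors (bottom row) in MKOS MEFs (n = 2), E-CAD+ 2NG- MKOS cells (n = 3), and TNG MKOS ESCs (n = 2). Bars are means, lines are SD, and points are libraries. Cdh1 and Pou5f1 sit near their ESC level in the sorted cells, whereas Sox2 and Nanog lie under it and Klf4 lies under its MEF level.

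Epithelial junction genes rose, many of them from no read. Of 32 tested genes of junctions and cell polarity, 24 were called higher and 0 lower (background 15.0% and 12%), and their median log2 fold change was 5.95, or 4.17 with the 11 genes that lacked reads in 1 group set to their bound. The median over all genes tested was 0.00. Epcam, a surface adhesion molecule, had no read in either MEF library and measured 71.7, 94.0, and 48.4 CPM in the sorted cells. Crb3, which organizes the apical membrane, likewise went from 0 reads to 66.0, 58.6, and 47.4 CPM. Ap1m2, the epithelial subunit of the AP-1 clathrin adaptor, measured 0 and 0.443 CPM in MEFs and 121, 124, and 128 CPM in E-CAD+ 2NG- cells. The claudin gene Cldn4 measured 1.02 and 0.886 CPM and then 69.8, 47.5, and 140 CPM. In each of these genes every sorted library was far above both MEF libraries. The desmosome gene Dsp rose from 0.409 and 4.21 CPM to 126, 118, and 92.8 CPM. Genes already present in MEFs rose less, such as Jup (plakoglobin), which was 3.40-fold higher, and F11r (JAM-A), which was 2.69-fold higher. Epcam, Crb3, Cldn4, and Dsp were chosen for naming after their values were seen. Without MKOS MEF replicate 1, 17 of the junction genes were called, and the calls of F11r (FDR = 0.0680) and Jup (0.134, and 0.0633 without E-CAD+ 2NG- replicate 2) were lost.

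Because Cdh1 repressors of the SNAI and ZEB families recognize the E-box CACCTG, which reads CAGGTG on the opposite strand, this motif was looked for on both strands in the 250 bases before the annotated start in RefSeq promoters of build GRCm38.p6. It was present in 17.1% of 27025 promoters, in 15.7% of the 10799 tested genes that matched an entry, in 18.3% of the 1636 matched genes called higher, and in 10.2% of the 1328 matched genes called lower. Of the 51 genes called higher in the 3 epithelial groups only 29 (56.9%) matched an entry, against 69.1% of all genes tested. The motif was present in 15 of these 29 (51.7%). As many members lacked an entry and the lists were chosen with earlier results of these data known, no conclusion is drawn from this share. The promoters of 4 junction genes that hold the motif are shown as examples of what it looks like in its place. They were picked for holding it and for their low level in MEFs, so they say nothing on how these genes are controlled. They are written from 5′ to 3′ on the gene's strand, with each E-box in capitals. They lie at chr17:87635729-87635978 (plus strand, Epcam), chr17:57061951-57062200 (plus strand, Crb3), chr9:21312334-21312583 (minus strand, Ap1m2), and chr5:134946935-134947184 (minus strand, Cldn4).
Epcam: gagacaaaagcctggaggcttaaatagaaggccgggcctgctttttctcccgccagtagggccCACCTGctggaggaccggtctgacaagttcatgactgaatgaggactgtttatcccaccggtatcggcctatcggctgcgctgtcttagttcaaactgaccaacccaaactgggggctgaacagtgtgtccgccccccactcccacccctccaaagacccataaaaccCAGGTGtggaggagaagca
Crb3: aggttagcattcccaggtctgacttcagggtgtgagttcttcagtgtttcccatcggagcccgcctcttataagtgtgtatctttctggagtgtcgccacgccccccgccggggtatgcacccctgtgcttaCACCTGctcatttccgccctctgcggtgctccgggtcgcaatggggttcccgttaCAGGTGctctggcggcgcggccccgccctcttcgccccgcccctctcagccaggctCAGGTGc
Ap1m2: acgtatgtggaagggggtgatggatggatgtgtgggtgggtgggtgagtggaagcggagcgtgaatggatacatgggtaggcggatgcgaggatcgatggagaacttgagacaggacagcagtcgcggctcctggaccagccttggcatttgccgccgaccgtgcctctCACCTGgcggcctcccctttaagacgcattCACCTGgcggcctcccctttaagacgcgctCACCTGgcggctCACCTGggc
Cldn4: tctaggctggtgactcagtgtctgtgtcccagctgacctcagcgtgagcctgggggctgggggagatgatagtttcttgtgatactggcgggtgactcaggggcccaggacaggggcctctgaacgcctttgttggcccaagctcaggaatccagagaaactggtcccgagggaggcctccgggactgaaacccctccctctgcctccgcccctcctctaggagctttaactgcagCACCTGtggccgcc
Epcam held 2 matches, Crb3 held 3, Ap1m2 held 4, and Cldn4 held 1. In Ap1m2 all 4 matches lay within the last 81 bases before the start. No binding was measured, and the motif is reported as a description of these sequences.

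Regulators of the epithelial state rose as well, with 16 of 23 called higher and 1 lower (background 15.0% and 12%). Sfn (stratifin, an epithelial 14-3-3 protein) measured 0.205 and 0.886 CPM in MEFs and 376, 414, and 303 CPM in E-CAD+ 2NG- cells. St14, which encodes the membrane protease matriptase, went from 0.102 and 0 CPM to 61.2, 89.5, and 97.3 CPM, and its inhibitor gene Spint2 from 20.1 and 17.3 CPM to 150, 184, and 199 CPM. These 3 genes showed no overlap between groups and small spread among the sorted libraries. The splicing regulator Esrp1, chosen after its values were seen, had no read in MEFs and measured 14.2, 10.5, and 17.6 CPM. The exception was Klf5, also a pluripotency-associated Klf gene, which measured 20.1 and 10.6 CPM in MEFs and 5.30, 8.27, and 6.50 CPM in E-CAD+ 2NG- cells (log2 fold change -1.29 ± 0.452, edgeR FDR = 0.0303). Its ESC level was 74.1 CPM, so the E-CAD+ 2NG- cells were the lowest of the 3 groups. The Klf5 call was lost in the DESeq2 Wald test (FDR = 0.0791) and without MKOS MEF replicate 1 (0.504) or E-CAD+ 2NG- replicate 1 (0.0946) or 3 (0.0578).

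Many keratins and genes of the cornified envelope were high in E-CAD+ 2NG- cells and low at both ends of reprogramming. Of 20 tested, 11 were called higher and 0 lower than in MEFs (background 15.0% and 12%), and 9 were not called. The groups did not overlap in 14 in the higher and in 4 in the lower direction (background 29.2% and 28.1%). The lowest log2 fold change was -5.93, and 2 genes were called lower when only the libraries compared were fitted. In the comparison with ESCs 14 were lower in ESCs and 0 higher (background 9.58% and 8.02%). Both comparisons share the E-CAD+ 2NG- libraries. Krt8, a keratin of simple epithelia, measured 3.28 and 7.98 CPM in MEFs, 846, 915, and 572 CPM in E-CAD+ 2NG- cells, and 3.81 CPM on average in ESCs. Krt17, a keratin of stratified and hair follicle epithelia, measured 0 and 0.665 CPM in MEFs, 1190, 816, and 355 CPM in E-CAD+ 2NG- cells, and 43.0 CPM in ESCs. Krtdap, expressed in differentiating keratinocytes, went from 9.32 and 10.9 CPM to 303, 401, and 164 CPM, and Lgals7, which encodes galectin-7 of stratified epithelia, from 11.7 and 21.0 CPM to 375, 365, and 796 CPM. Both lay at 0.440 and 0.464 CPM on average in ESCs. Keratins of basal and injured epidermis were uneven among the sorted libraries. Krt14 measured 159, 95.9, and 5.69 CPM and Krt6a 84.1, 30.7, and 9.35 CPM, with replicate 3 lowest in both, against at most 1.23 CPM in MEFs. These 2 keratins were chosen after their values were seen. The summed level of the group was 221 and 281 CPM in MEFs and 3498, 3216, and 2268 CPM in the sorted libraries. The number called higher was 7 by the DESeq2 Wald test and 8 without either MEF library, and it was 7 without replicates 1 and 2 of the sorted cells. Macrophage markers too were lowest in replicate 3, and their part in the spread of the keratins was not tested.

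On the mesenchymal side, 17 of 29 transcription factors were called lower, 1 was called higher (background 12% and 15.0%), and 11 were not called. Their median log2 fold change was -3.17 (-3.11 with the 2 genes lacking reads in 1 group at their bound). Snai1, a repressor of Cdh1, measured 95.3 and 114 CPM in MEFs and 5.92, 7.68, and 5.83 CPM in E-CAD+ 2NG- cells, 16.5-fold lower (edgeR FDR = 1.18e-05). Zeb1, chosen after its values were seen, went from 34.2 and 40.5 CPM to 2.55, 2.36, and 6.77 CPM. Both repressors were thus low in every sorted library, and neither group overlapped the other. Prrx1, a homeodomain factor of limb and craniofacial mesenchyme, fell from 195 and 281 CPM to 16.3, 8.27, and 12.7 CPM, and Nfib from 134 and 157 CPM to 7.55, 5.02, and 4.34 CPM. Etv5, an ETS factor that responds to FGF signals and is high in ESCs, rose from 15.3 and 13.1 CPM to 67.8, 56.8, and 123 CPM, although only 48% of its reads over all libraries had a single position. The number of factors called lower was 11 without MKOS MEF replicate 2 and 7 without replicates 1 and 2 of the sorted cells.

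Surface and secreted markers of fibroblasts fell with them, 25 of 36 being called lower and 2 higher (background 12% and 15.0%). Vim, the mesenchymal intermediate filament, measured 1826 and 1868 CPM in MEFs and 302, 156, and 102 CPM in E-CAD+ 2NG- cells, 10.1-fold lower, beside 45.7 CPM in ESCs. S100a4, also known as fibroblast-specific protein, went from 2076 and 2130 CPM to 259, 245, and 258 CPM, and Fstl1, a secreted glycoprotein, from 1202 and 1194 CPM to 169, 67.5, and 128 CPM. Thy1, by which fibroblasts are commonly sorted, was chosen after its values were seen and went from 306 and 324 CPM to 23.6, 6.35, and 27.2 CPM. None of these genes was silent after the gate. Ly6a, which encodes Sca-1, moved against the group. It rose from 129 and 117 CPM to 450, 453, and 643 CPM (log2 fold change 2.02 ± 0.670, edgeR FDR = 0.0213) and had no read in ESCs, but only 19.4% of its reads had a single position and the call was lost without either MEF library (FDR = 0.0910 and 0.151) or without E-CAD+ 2NG- replicate 3 (0.0672). Nt5e, an ecto-nucleotidase, rose from no read to 5.51, 7.68, and 2.30 CPM, a call lost without MKOS MEF replicate 1 (FDR = 0.0549).

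Many genes of the extracellular matrix fell. Of 29 collagens and associated proteins, 19 were called lower, 0 higher (background 12% and 15.0%), and 10 were not called. Col3a1 measured 1963 and 2205 CPM in MEFs and 132, 62.4, and 211 CPM in E-CAD+ 2NG- cells, 15.8-fold lower (edgeR FDR = 6.61e-08). Col1a2 went from 1209 and 1354 CPM to 334, 146, and 165 CPM, Col1a1 from 734 and 881 CPM to 189, 106, and 114 CPM, and Sparc, a matrix glycoprotein, from 2087 and 1576 CPM to 820, 420, and 448 CPM. These transcripts remained well above their ESC means, which were 0.755 CPM for Col3a1, 0.219 CPM for Col1a2, and 0.440 CPM for Col1a1. The basement membrane collagens Col4a1 and Col4a2 were not called, with log2 fold changes of 0.04 and -0.01. Among 20 proteases and inhibitors that remodel the matrix, 13 were called lower, 0 higher, and 7 were not called. Adamts1 was 22.1-fold lower, and Timp1 fell 1.80-fold from 751 and 643 CPM to 444, 408, and 350 CPM. The calls of Sparc (FDR = 0.0973) and Timp1 (0.252) were lost without MKOS MEF replicate 1, and that of Timp1 also without E-CAD+ 2NG- replicate 3 (0.0688).

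Of 30 contractile and actin cytoskeleton genes, 17 were called lower and 0 higher (background 12% and 15.0%), and 13 were not called. Tpm1, a tropomyosin of stress fibers, fell from 1331 and 1205 CPM to 355, 204, and 144 CPM. Myl6, a myosin light chain of all cells, fell 2.39-fold from 2908 and 2978 CPM to 1535, 1222, and 1039 CPM, which is about its ESC mean of 1294 CPM. The smooth muscle genes behaved differently, as they were uneven after the gate. Acta2 measured 707 and 517 CPM in MEFs and 761, 271, and 97.3 CPM in E-CAD+ 2NG- cells, and Tagln measured 716 and 623 CPM and then 747, 316, and 106 CPM. In both, replicate 1 was above the MEFs and replicate 3 far below them, and neither was called (edgeR FDR = 0.551 and 0.549). Macrophage markers were likewise highest in replicate 1 and lowest in replicate 3, with a summed level of 1860, 1011, and 187 CPM, and their part in this spread was not tested.

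In the TGF-beta group, whose ligands drive mesenchymal fate, 14 of 25 genes were called lower and 0 higher (background 12% and 15.0%). The summed level of the group was 2673 and 2931 CPM in MEFs and 1359, 770, and 442 CPM in replicates 1, 2, and 3 of the sorted cells. Replicate 3 was lowest here, as in the macrophage sum (1860, 1011, and 187 CPM), whose part in this was not tested. Tgfbi, an induced matrix protein, fell from 509 and 480 CPM to 14.4, 6.94, and 8.54 CPM, 50.5-fold. The receptor gene Tgfbr2, chosen after its values were seen, fell from 102 and 101 CPM to 11.4, 8.71, and 5.83 CPM, whereas Smad2 and Smad4, which carry the signal, had log2 fold changes of 0.09 and 0.16 and were not called. Without E-CAD+ 2NG- replicate 3, 9 of the TGF-beta genes were called lower. Of 11 AP-1 factors, 7 were called lower and 0 higher, and all 11 showed no overlap between groups in that direction (background 28.1%). Their summed level was 994 and 1013 CPM in MKOS MEFs but 442 and 668 CPM in OKMS MEFs. With MEFs of all genotypes as reference, 5 AP-1 factors were called lower, and their median log2 fold change was -1.87 in place of -3.05. Fosb measured 301 and 314 CPM in MEFs and 14.8, 13.3, and 29.1 CPM after the gate, and Jun measured 112 and 138 CPM and then 22.9, 25.8, and 29.1 CPM. Without replicates 1 and 2 of the sorted cells, 3 AP-1 factors were called lower.

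Among the Id genes, which are targets of BMP signals, Id1 and Id3 fell steeply. Id3 measured 2344 and 2029 CPM in MEFs and 154, 93.9, and 162 CPM in E-CAD+ 2NG- cells, and Id1 measured 1098 and 1041 CPM and then 87.7, 93.7, and 71.8 CPM. They were 16.5-fold and 13.0-fold lower (edgeR FDR = 1.19e-05 and 3.02e-05) beside ESC means of 54.1 and 120 CPM. Id2 measured 186 and 244 CPM in MEFs and 110, 124, and 96.7 CPM after the gate and was not called (edgeR FDR = 0.125). In all, 9 of 22 BMP genes were called lower and 0 higher, and this number was 6 without either MEF library or without replicate 2 of the sorted cells, and 4 without replicates 1 and 2. In the LIF-STAT3 group, 9 of 15 genes were called lower and 1 higher. The background of both groups is 12% lower and 15.0% higher. LIF sustains mouse ESCs through this pathway. The shared receptor gene Il6st fell from 153 and 174 CPM to 15.9, 20.2, and 25.7 CPM, and Stat3 from 105 and 143 CPM to 34.9, 28.8, and 18.4 CPM. Their ESC means were 15.9 and 23.0 CPM, and neither gene was called between E-CAD+ 2NG- cells and ESCs. The gene called higher was Tfcp2l1, a pluripotency factor downstream of STAT3, with 0.409 and 0 CPM before and 39.7, 45.0, and 98.9 CPM after.

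Among Wnt genes 12 of 30 were called lower and 1 higher (background 12% and 15.0%). The antagonists Sfrp1 (4.63-fold) and Dkk2 (44.6-fold) and Ctnnb1, encoding beta-catenin (2.24-fold), were among the lower ones. Lef1 was the higher one and measured 0 and 0.443 CPM in MEFs and 9.69, 6.79, and 8.13 CPM in E-CAD+ 2NG- cells, a call lost without MKOS MEF replicate 1 (edgeR FDR = 0.129). Of 22 genes of FGF and ERK signaling, 8 were called lower and 2 higher. The immediate early genes Ier3 and Egr1 fell 21.8-fold and 7.09-fold, and the ERK phosphatase gene Dusp6 fell 4.39-fold. Fgf4, the FGF ligand of pluripotent cells, rose from no read to 15.7, 27.5, and 24.9 CPM. Of the FGF and ERK genes, 4 were called lower without MKOS MEF replicate 1 and 5 without E-CAD+ 2NG- replicate 3.

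**Figure D3:**
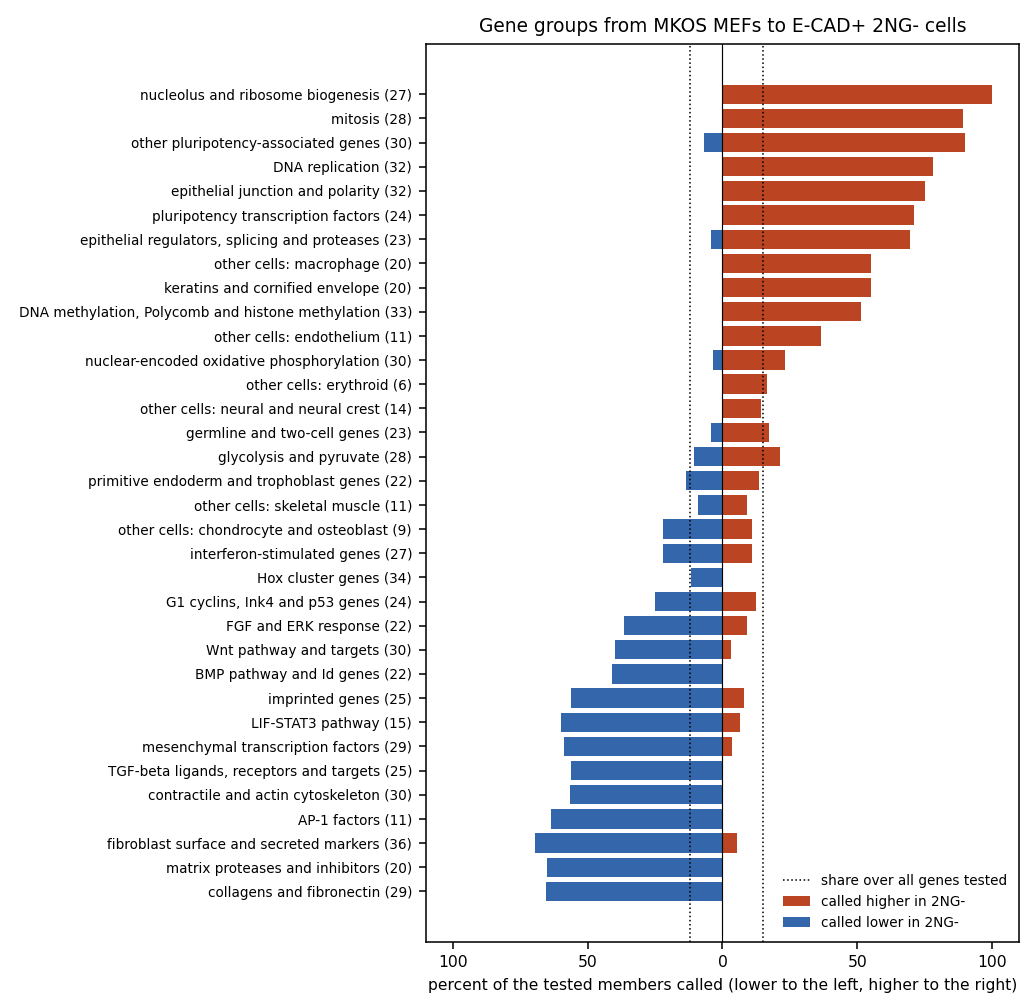
Percent of the tested members of each gene group (number in parentheses) called higher (red, to the right of 0) or lower (blue, to the left) in E-CAD+ 2NG- MKOS cells than in MKOS MEFs. Dotted lines mark the shares over all genes tested, 15.0% higher and 12% lower. Nucleolar, mitotic, pluripotency, DNA replication, and epithelial groups extend far to the right, and matrix, fibroblast, and AP-1 groups far to the left.

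Most genes of the pluripotency network were detected in E-CAD+ 2NG- cells, and many of them lay under their ESC level. Of 24 pluripotency transcription factors, 17 were called higher than in MEFs and 0 lower (background 15.0% and 12%). Zfp42 (Rex1) measured 1.95 and 1.11 CPM in MEFs and 195, 203, and 406 CPM in E-CAD+ 2NG- cells, and Zfp296 went from no read to 56.9, 41.5, and 90.6 CPM. Esrrb, chosen after its values were seen, measured 0.614 and 0 CPM and then 49.0, 53.7, and 69.4 CPM. Each of these 3 genes was highest in replicate 3. When compared with ESCs, 12 of the 24 factors were higher in ESCs and 1 lower (background 8.02% and 9.58%). Nr0b1, chosen after its values were seen, was low in the intermediates, at 2.65, 5.46, and 12.2 CPM, whereas its ESC mean was 97.1 CPM. The summed level of the 24 factors was 103 and 121 CPM in MEFs and 645, 712, and 1208 CPM in the sorted libraries, with replicate 3 highest.

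Other genes associated with pluripotency showed the same direction, with 27 of 30 called higher and 2 lower (background 15.0% and 12%). Dppa5a measured 8.80 and 3.77 CPM in MEFs and 1720, 1926, and 2513 CPM in E-CAD+ 2NG- cells, a 296-fold difference, and reached 12088 CPM in ESCs. L1td1, an RNA-binding protein gene, went from 0.512 and 0 CPM to 209, 166, and 251 CPM, beside 365 CPM in ESCs. Tdh, which encodes the threonine dehydrogenase that mouse ESCs depend on, had 1 read in both MEF libraries together and measured 312, 334, and 527 CPM in E-CAD+ 2NG- cells, beside 468 CPM in ESCs. The methyltransferase cofactor gene Dnmt3l, chosen after its values were seen, was only at 9.28, 7.09, and 26.3 CPM, against 330 CPM in ESCs. The 2 genes called lower were Spp1 (osteopontin), which measured 1449 and 964 CPM and then 710, 377, and 384 CPM, and Gsta4, a glutathione transferase gene, which measured 128 and 106 CPM and then 54.8, 70.7, and 75.6 CPM. Both calls were lost without MKOS MEF replicate 1 (edgeR FDR = 0.210 and 0.266), and that of Gsta4 also without E-CAD+ 2NG- replicate 1 (0.0938).

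The 12 largest rises among genes with at least 20 CPM in E-CAD+ 2NG- cells and no overlap between groups combined 2 kinds of genes. Trh, Tcl1, Dppa3, and Tdh are active in pluripotent cells and measured 167, 105, 46.9, and 468 CPM on average in ESCs. Phlda2, Klk8, and 4933402E13Rik were lower there, at 29.5, 13.8, and 6.17 CPM. The other 5 were at or near 0 in ESCs. The predicted gene 4930550L24Rik on the X chromosome had no read in MEFs or ESCs and measured 294, 309, and 227 CPM in E-CAD+ 2NG- cells, at least 570-fold above MEFs. Ly6g6c, of the Ly6 family, measured 168, 162, and 235 CPM and Mal, a membrane traffic protein gene of epithelia and myelin, 95.5, 121, and 71.5 CPM. Klk10, a kallikrein protease gene, measured 77.8, 56.4, and 110 CPM and 2300002M23Rik 99.6, 111, and 41.5 CPM. These 5 genes were called lower in ESCs than in E-CAD+ 2NG- cells (edgeR FDR between 2.11e-08 and 0.00376). In MKOS cells sorted as 3NG-, 4930550L24Rik had a mean of 154 CPM and Ly6g6c of 63.4 CPM, and in Nanog-GFP+ 3NG+ cells they had means of 24.5 and 13.3 CPM.

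The 12 largest falls were led by genes with few or no reads after the gate. Gdf10, a BMP-related ligand, measured 25.9 and 28.6 CPM in MEFs and had no read in E-CAD+ 2NG- cells, at least 70.7-fold lower, although it was not called by the DESeq2 Wald test (FDR = 0.381). Tac1, the precursor of substance P, measured 133 and 144 CPM in MEFs and 0, 0.295, and 0 CPM after the gate. The urea transporter gene Slc14a1 went from 71.9 and 56.3 CPM to 0, 0, and 0.135 CPM, and Enpp2 (autotaxin) from 42.5 and 40.5 CPM to 0.102, 0, and 0 CPM. Dlk1, an imprinted gene of fetal mesenchyme, fell from 111 and 199 CPM to 0.510, 0.886, and 0.948 CPM, 200-fold. The remaining genes of this set were Steap4, the mitochondrial tRNA gene mt-Tl2, the endothelin receptor gene Ednra, Gem, 1810011O10Rik, Smarca1, and Wnt16, with MEF means between 20.6 and 244 CPM and means of at most 2.00 CPM in E-CAD+ 2NG- cells.

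Nucleolar and ribosome biogenesis genes moved as 1 block. Every one of the 27 was called higher in E-CAD+ 2NG- cells (background 15.0%), with log2 fold changes from 0.80 to 3.69 and a median of 1.86. Npm1 (nucleophosmin) measured 2291 and 1855 CPM in MEFs and 5204, 5846, and 6064 CPM in E-CAD+ 2NG- cells, and Ncl (nucleolin) measured 394 and 398 CPM and then 1622, 1667, and 1357 CPM. Nhp2, a small nucleolar ribonucleoprotein subunit, rose from 144 and 127 CPM to 668, 717, and 774 CPM. In none of the 27 did the groups overlap, all being higher in the sorted libraries (background 29.2%). None was called between E-CAD+ 2NG- cells and ESCs (background 17.6%). The summed level was 3496 and 3978 CPM in MEFs and between 11420 and 12392 CPM in the sorted libraries.

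Cell cycle genes moved in the same direction by smaller steps. Of 32 DNA replication genes, 25 were called higher and 0 lower, and of 28 mitosis genes, 25 were called higher and 0 lower, with median log2 fold changes of 1.53 and 1.15. Pcna, the polymerase clamp, rose from 132 and 105 CPM to 359, 403, and 327 CPM, and Mcm5, of the replicative helicase, from 35.1 and 35.9 CPM to 121, 150, and 183 CPM. Cdk1, the mitotic kinase, measured 174 and 158 CPM and then 308, 338, and 396 CPM. Only 9 mitosis genes passed a test against a 2-fold difference, and 17 were called without E-CAD+ 2NG- replicate 3 or without MKOS MEF replicate 1. Genes of G1 control were mixed, with 3 of 24 called higher and 6 lower (background 15.0% and 12%). Cdkn1c, an imprinted CDK inhibitor gene chosen after its values were seen, fell from 84.4 and 109 CPM to 1.73, 1.18, and 0.406 CPM. Cdkn2a, whose products restrain reprogramming, measured 64.7 and 88.6 CPM and then 24.6, 40.0, and 20.7 CPM and was not called (edgeR FDR = 0.0825), and Cdkn1a measured 419 and 568 CPM and then 540, 429, and 302 CPM (FDR = 0.743). The p53 targets Mdm2 and Ccng1 were 4.39-fold and 2.95-fold lower, whereas Trp53 was 1.96-fold higher. The number of G1 genes called lower was 3 without either MEF library or without E-CAD+ 2NG- replicate 2, and 1 was called higher without MKOS MEF replicate 1. The Trp53 call was lost without either MEF library (FDR = 0.0889 and 0.289) or without replicate 3 of the sorted cells (0.340).

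Energy metabolism differed in few genes. Of 28 glycolytic genes, 6 were called higher and 3 lower, which is near the background of 15.0% and 12%. Slc2a3, the high-affinity glucose transporter of early embryos, rose from 4.91 and 10.2 CPM to 132, 155, and 226 CPM, and Slc2a1 rose 2.94-fold, while Gapdh, Ldha, and Pkm were not called (log2 fold changes of 0.15, 0.38, and 0.20). Ldhb fell from 150 and 122 CPM to 23.2, 12.5, and 19 CPM and was 360 CPM in ESCs, so that the intermediates were lowest. Of 30 nuclear-encoded genes of oxidative phosphorylation, 7 were called higher and 1 lower (background 15.0% and 12%), and 0 were called higher against a 2-fold difference. Atp5b, a subunit of the ATP synthase, was 1.77-fold and Ndufv1, of complex I, 1.87-fold higher. Without MKOS MEF replicate 2, 3 glycolytic and 4 oxidative phosphorylation genes were called higher, and the calls of Slc2a1 (FDR = 0.0627) and Ndufv1 (0.0566) were lost. The 3 lower calls of glycolysis dropped to 1 without either MEF library or without E-CAD+ 2NG- replicate 2.

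Genes of DNA methylation, Polycomb, and histone methylation rose in part, 17 of 33 being called higher and 0 lower (background 15.0% and 12%). Dpy30 and Ash2l, subunits shared by MLL-type H3K4 methyltransferases, measured 106 and 98.6 CPM and 21.1 and 25.9 CPM in MEFs and rose to 411, 491, and 564 CPM and to 119, 120, and 151 CPM. Dnmt1, which maintains DNA methylation, rose 2.05-fold (a call lost without MKOS MEF replicate 2, edgeR FDR = 0.105) and its partner Uhrf1 2.84-fold. In ESCs 12 of the 33 were higher than in E-CAD+ 2NG- cells and 0 lower (background 8.02% and 9.58%). Among the higher ones was Tet1, chosen after its values were seen, with 18.1, 30.1, and 34.1 CPM in E-CAD+ 2NG- cells and 171 CPM in ESCs.

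Imprinted genes, many of which promote fetal growth, were in part lower. Of 25 tested, 14 were called lower, 2 higher (background 12% and 15.0%), and 9 were not called. The median log2 fold change was -2.37 (-2.25 with the 4 genes lacking reads in 1 group at their bound). Igf2, the growth factor that took 6441 and 6563 CPM in MEFs, measured 124, 80.9, and 142 CPM in E-CAD+ 2NG- cells, 57.5-fold lower (edgeR FDR = 2.39e-08), and 0.974 CPM in ESCs. Peg3 and Igf2r, chosen after their values were seen, went from 116 and 205 CPM to 5.41, 6.79, and 5.28 CPM and from 171 and 204 CPM to 15.3, 11.5, and 15.4 CPM. Meg3, also chosen after its values were seen, went from 298 and 345 CPM to 67.7, 29.5, and 39.6 CPM and was 267 CPM in ESCs. H19 was not called, with 33.6 and 31.2 CPM in MEFs and 44.6, 20.5, and 74.5 CPM in E-CAD+ 2NG- cells. Phlda2 rose, with no read in MEFs and 150, 182, and 102 CPM in E-CAD+ 2NG- cells. The other gene called higher was Mkrn3, at least 3.28-fold higher, a call lost without either MEF library (FDR = 0.164 and 0.106) or without E-CAD+ 2NG- replicate 3 (0.0794).

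Germline genes showed where the sorted libraries parted. Of 23 germline and two-cell stage genes, 4 were called higher and 1 lower (background 15.0% and 12%), and 11 had no read in any of the 5 libraries. Rhox6 measured 0.409 and 0 CPM in MEFs and 25.4, 28.0, and 485 CPM in E-CAD+ 2NG- cells, and Rhox9 had no read in MEFs and measured 5.41, 1.18, and 51.6 CPM. Replicate 3 was the highest library in both, and only 7.33% of the Rhox6 reads and 42.8% of the Rhox9 reads had a single position. Rhox5 was more even, with 3.48 and 2.22 CPM before and 63.4, 75.0, and 88.9 CPM after. Dppa3, of primordial germ cells and naive pluripotency, measured 32.3, 45.5, and 232 CPM, again with replicate 3 highest. Ddx4 (Vasa) was lower, from 2.66 and 8.20 CPM to 0.408, 0, and 0 CPM. Replicate 3 was thus higher than replicates 1 and 2 in Nanog, Dppa3, and Rhox6 and lower in Krt14, Acta2, and macrophage markers.

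Hox genes, which record the body position of a fibroblast, were called lower about as often as genes at large, but their median log2 fold change was -1.87. With genes lacking reads in 1 group at their bound the median was -1.66. The groups did not overlap in 18 of 34 in the lower direction (background 28.1%) and in 1 in the higher direction (29.2%). Of 34 tested, 4 were called lower, against 12% of all genes, and 0 higher (1 lower without E-CAD+ 2NG- replicate 2, 2 without its replicate 3 or MKOS MEF replicate 1, and 0 in the DESeq2 Wald test), and the summed level was 150 and 167 CPM in MEFs and between 45.1 and 79.9 CPM in E-CAD+ 2NG- cells. Interferon-stimulated genes were mixed, with 6 of 27 called lower and 3 higher (background 12% and 15.0%). Ifitm2 and Ifitm3, membrane proteins that restrict viruses, fell from 2055 and 1875 CPM to 438, 371, and 420 CPM and from 1642 and 1367 CPM to 198, 95.2, and 175 CPM, whereas Bst2 (tetherin) rose from 31.8 and 34.1 CPM to 134, 144, and 137 CPM. Without MKOS MEF replicate 1 or E-CAD+ 2NG- replicate 2, 3 interferon-stimulated genes were called lower. Among 22 genes of primitive endoderm and trophoblast, 3 were called in each direction, near the background of 15.0% higher and 12% lower. Gata6 fell from 25.3 and 24.1 CPM to 2.04, 0.886, and 0 CPM, and Lama1, of the laminin of basement membranes, rose from 1.74 and 0.886 CPM to 16.9, 29.8, and 13.7 CPM. The Gata6 call was lost without any 1 of the MEF libraries (FDR = 0.0825 and 0.0666) or of sorted replicates 2 and 3 (0.0796 and 0.0934). With MKOS MEF replicate 1 or E-CAD+ 2NG- replicate 2 left out, 1 gene of this group was called lower. Xist, transcribed from the inactive X chromosome, measured 2.15 and 3.99 CPM in MEFs and 35.1, 10.6, and 8.54 CPM in the sorted libraries and was called (edgeR FDR = 0.0158), but not without replicate 1 of the sorted cells (FDR = 0.144) or without either MEF library (0.156 and 0.0614), and its direction turned when MEFs of all genotypes served as reference (log2 fold change -0.48, FDR = 0.540). The Y-linked genes Ddx3y and Eif2s3y were not called.

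Markers of macrophages were present in the E-CAD+ 2NG- libraries and differed among them. Of 20 such genes, 11 were called higher than in MEFs and 0 lower (background 15.0% and 12%). Lyz2 (lysozyme) measured 14.1 and 12.4 CPM in MEFs and 1467, 734, and 139 CPM in E-CAD+ 2NG- cells. Tyrobp, an adaptor of myeloid receptors, measured 1.13 and 0 CPM and then 80.7, 51.5, and 4.61 CPM, and the complement gene C1qb measured 0 and 0.443 CPM and then 64.4, 39.0, and 5.69 CPM. The defining receptor gene Csf1r measured 0.102 and 0 CPM in MEFs and 10.1, 10.6, and 0.948 CPM in the sorted libraries, and Ptprc (CD45) was at 0 in MEFs and at 0.918, 1.18, and 0 CPM. Summed over the 20 genes, the level was 33.6 and 25.7 CPM in MEFs and 1860, 1011, and 187 CPM in E-CAD+ 2NG- cells, with a read in 20, 20, and 16 of the genes. It was 157 and 145 CPM in OKMS MEFs, 293, 362, and 153 CPM in E-CAD+ 2NG- OKMS cells, and 35.9 and 50.9 CPM in ESCs. With replicates 1 and 2 left out, 1 of the 20 was called, and without MKOS MEF replicate 1 or 2 it was 3 or 2. Lyz2 was among the calls lost without either MEF library (FDR = 0.0508 and 0.0614), C1qb without MKOS MEF replicate 1 (0.0676), and Tyrobp without replicate 2 (0.0979). In bulk RNA, more cells of a type and more RNA per cell cannot be told apart, and the part of these transcripts in other differences was not tested. With replicates 1 and 2 left out, replicate 3 stood alone and was assumed to vary like the other groups. In that fit 20 of 32 junction genes, 16 of 24 pluripotency factors, and 26 of 27 nucleolar genes were called higher, and 18 of 36 fibroblast markers lower, while the mesenchymal factors called lower went from 17 to 7, the AP-1 factors from 7 to 3, and the BMP genes from 9 to 4.

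Marker lists of other cell types held few calls among few tested genes (background 15.0% higher and 12% lower), and whether such cells were present was not tested. Of 11 tested endothelial genes, 4 were called higher, a share above the background, and 0 lower. Tie1 went from no read to 24.1, 34.4, and 20.1 CPM, while Cdh5 had no read in the sorted libraries. Without MKOS MEF replicate 1, 0 of these genes were called (Tie1 at an edgeR FDR of 0.0567), and without replicate 2 it was 2. Of 14 neural genes, Tubb3 and Erbb3 were called higher, Tubb3 with 29.0 and 28.8 CPM in MEFs and 169, 168, and 36.3 CPM after the gate, so that it too was lowest in replicate 3. The Tubb3 call was lost without either MEF library (FDR = 0.0637 and 0.0878). The embryonic globin gene Hbb-y, the single erythroid gene called of 6 tested, went from no read to 17.1, 10.9, and 43.1 CPM. Of 11 muscle genes, Mylpf was called higher and Des lower, and of 9 cartilage and bone genes, Alpl, which also marks pluripotent cells, was called higher and Sox9 and Runx2 lower, Runx2 not without MKOS MEF replicate 1 (FDR = 0.0910) or E-CAD+ 2NG- replicate 3 (0.0758).

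**Figure D4:**
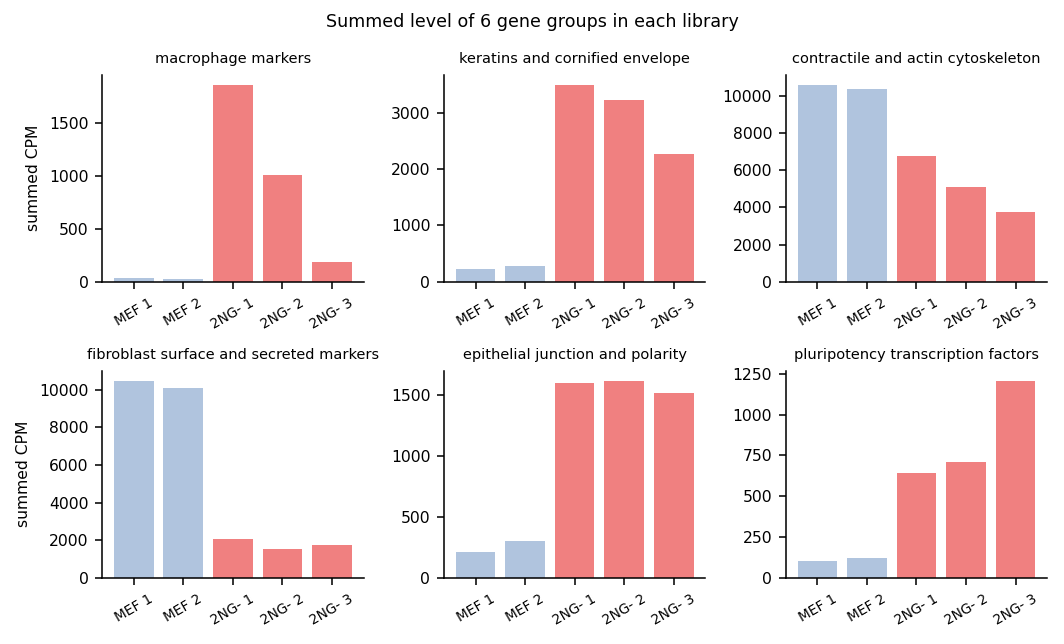
Summed CPM (y axes, starting at 0) of 6 gene groups in each of the 2 MKOS MEF libraries (blue) and 3 E-CAD+ 2NG- MKOS libraries (red). The macrophage sum is 1860 CPM in replicate 1 and 187 CPM in replicate 3 of the sorted cells, while the junction group stays between 1519 and 1619 CPM in all 3.

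E-CAD+ 2NG- cells and TNG MKOS ESCs differed in 2752 genes (17.6%), 1254 higher (8.02%) and 1498 lower (9.58%) in ESCs. This number was 1154 without TNG MKOS ESCs replicate 2. Many fibroblast transcripts were above the ESC level, since 20 of 36 fibroblast markers, 18 of 29 collagens and associated proteins, and 14 of 30 contractile genes were called lower in ESCs than in E-CAD+ 2NG- cells. Wild-type MEFs had been mixed in for reprogramming, and how much of this RNA came from host cells was not tested. Of the 32 junction genes, 12 were called lower in ESCs and 1 higher, so that several junction genes exceeded their ESC level, such as Crb3 with an ESC mean of 10.8 CPM and Ap1m2 with 24.8 CPM. Sfn, at 303 to 414 CPM in E-CAD+ 2NG- cells, lay at 25.4 CPM in ESCs (log2 fold change -3.72, edgeR FDR = 0.000128).

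Whether the step from MEF to E-CAD+ 2NG- depended on the cassette was asked by subtracting the change with OKMS from that with MKOS. The difference was called for 211 genes (1.35%), with 124 (0.793%) changing more upward and 87 (0.557%) more downward in MKOS, and this number was 98 or 90 without MKOS MEF replicate 1 or 2, 124 or 102 without OKMS MEF replicate 1 or 2, and at most 219 with single libraries left out. This comparison shares the MKOS libraries with the main one. Factor order and Klf4 form differ together between the cassettes, and their parts cannot be told apart here. The kallikrein gene Klk8 had no read in MKOS MEFs and measured 156, 172, and 98.0 CPM in E-CAD+ 2NG- MKOS cells, while it measured 9.84 and 3.78 CPM in OKMS MEFs and 15.5, 13.9, and 22.2 CPM in the OKMS intermediates. Pltp, a phospholipid transfer protein gene, rose from 9.93 and 11.5 CPM to 117, 132, and 123 CPM with MKOS and went from 29.5 and 24.6 CPM to 8.86, 5.80, and 10.2 CPM with OKMS. The MKOS intermediates were therefore highest in both genes. Gsta4 was the reverse, with 128 and 106 CPM before and 54.8, 70.7, and 75.6 CPM after in MKOS and with 83.7 and 67.4 CPM before and 941, 736, and 700 CPM after in OKMS. Fam64a, expressed in dividing cells, fell from 38.6 and 39.4 CPM to 2.75, 5.31, and 7.05 CPM in MKOS and measured 29.9 and 34.5 CPM and then 41.4, 38.0, and 58.0 CPM in OKMS. In all of the 12 genes plotted but Capns1 the levels of the MKOS and OKMS MEF libraries did not overlap. The imprinted gene H19 measured 33.6 and 31.2 CPM in MKOS MEFs but 2730 and 3554 CPM in OKMS MEFs, while it was at 44.6, 20.5, and 74.5 CPM in MKOS and at 84.7, 60.3, and 213 CPM in OKMS intermediates. Among the groups, the contractile genes held 7 of 30 with a more upward change in MKOS and 0 with a more downward one, and the junction genes held 0 in either direction. The summed contractile level was 10617 and 10378 CPM in MKOS MEFs and 18653 and 19072 CPM in OKMS MEFs. In the intermediates it was 6754, 5099, and 3753 CPM with MKOS, highest in replicate 1 as the macrophage sum was, and between 2941 and 3157 CPM with OKMS.

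**Figure D5:**
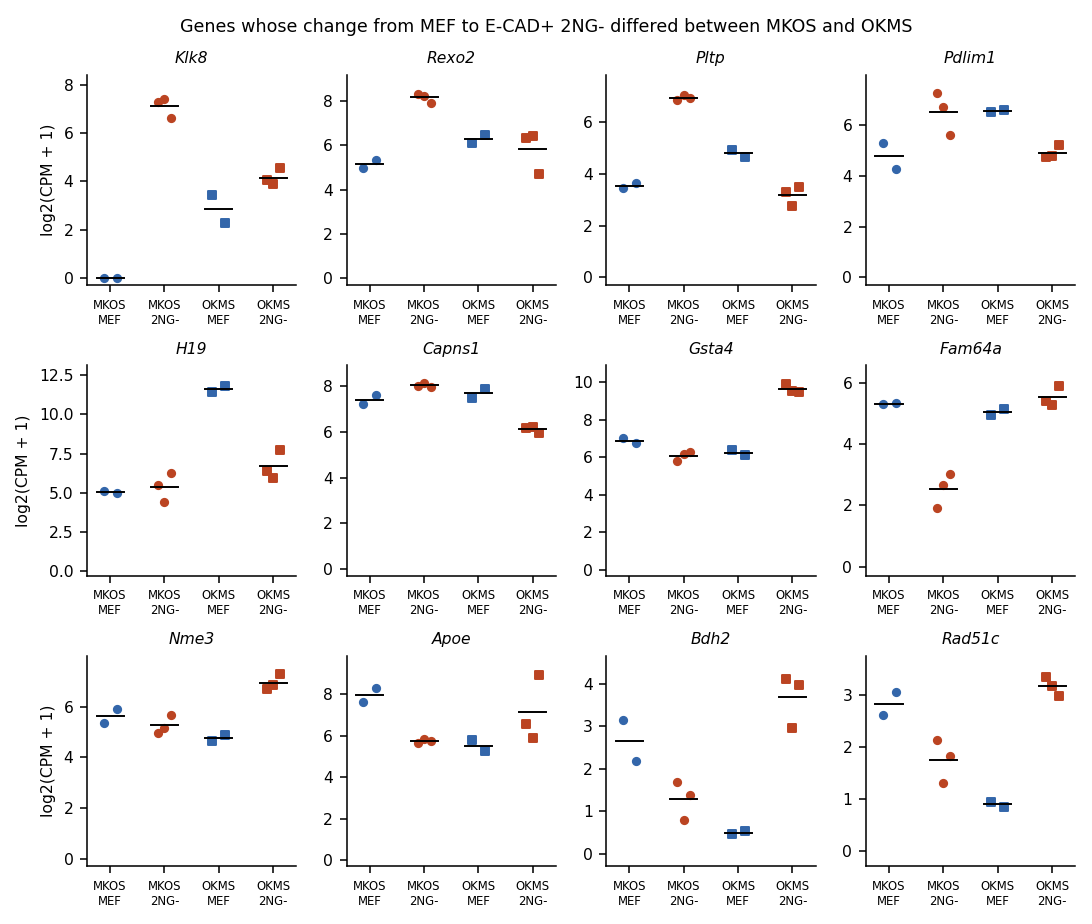
Levels as log2(CPM + 1) (y axes) of 12 genes whose change from MEF to E-CAD+ 2NG- differed between cassettes, in MKOS MEFs (n = 2), MKOS E-CAD+ 2NG- cells (n = 3), OKMS MEFs (n = 2), and OKMS E-CAD+ 2NG- cells (n = 3). Points are libraries and lines are means, with MEFs in blue and sorted cells in red. The first 6 genes changed more upward with MKOS and the last 6 more downward, and the MEF levels of the cassettes overlap only in Capns1.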

How the data were processed

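RNA was measured by STRT RNA-seq, which tags the 5′ end of transcripts. The deposited values are raw read counts per feature, made by the authors. Per the labels, reads were aligned with Bowtie 0.12.7 to mm10, whereas the study's methods name NCBI37.1/mm9, and of 20698 symbols shared with RefSeq GRCm38.p6, 98.6% had positions inside that gene, so only its promoters are given with coordinates. Per the file headers, a read with several positions was assigned to its most 5′ exonic hit, so values of genes with similar copies are uncertain. Of 24264 transcript rows, 15630 passed edgeR's filterByExpr and were tested. The 1554 repeat rows and 104 spike-in rows stayed out of library sizes.

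Counts were fitted with edgeR 4.0.16 (quasi-likelihood, TMM) in R 4.3.3 over all 48 libraries in 20 groups. SE is the log2 fold change divided by the square root of F. A fold against a group without reads was computed against a floor of 3 reads. Nothing in the labels says that replicates are separate cultures, so p-values measure only the spread between these samples, and intervals and floors cover counting error only. DESeq2 1.42.0 and the settings named in the closing section were alternatives. On simulated data with 200 of 13367 genes changed 4-fold, edgeR called 18, all of them changed genes, and DESeq2 called 63, of which 52 were changed genes. The simulation gave all genes the same spread and changed few of them, unlike the data, so it gives no rate of missed or false calls for the data.

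Genes were named by a rule: the 12 largest rises and falls with at least 20 CPM in the higher group and no overlap, the gate genes and factors, up to 4 called members with the highest level and up to 3 called against the majority in each group, and up to 6 in each direction for the cassettes. The members and lists were chosen with earlier results of these data known.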

Additional observations from a re-analysis of the deposited data

Results flagged for a closer look

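In 211 genes, of which the 6 with the smallest p in each direction are given here, the change from MEF to E-CAD+ 2NG- differed between the MKOS and OKMS cassettes by a test of the difference itself, an interaction term in edgeR's quasi-likelihood fit. The log2 change with MKOS exceeded that with OKMS by 11.44 for Klk8, 5.04 for Pltp, 5.03 for H19, 3.32 for Pdlim1, 3.22 for Rexo2, and 2.09 for Capns1 (edgeR FDR between 1.81e-08 and 0.000124). The difference was -6.96 for Bdh2, -4.70 for Apoe, -4.64 for Rad51c, -4.34 for Gsta4, -3.65 for Fam64a, and -2.75 for Nme3 (edgeR FDR between 1.81e-08 and 0.000513). MEF levels of Apoe were 199 and 315 CPM with MKOS and 54.0 and 37.8 CPM with OKMS. As Klk8 had no read in MKOS MEFs, its value depends on the fit and is no measured size. MEF levels of the cassettes overlapped only in Capns1. No group held enough samples for a test of single outlying libraries.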

How the results depend on the processing

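For MKOS MEFs against E-CAD+ 2NG- cells, the count of 4214 called genes was 1851 against a 2-fold difference, between 2573 and 3724 with 1 library left out, and 2544 without replicates 1 and 2 of the sorted cells, a setting chosen after seeing the data. It was 3945 with DESeq2's Wald test, 4197 with DESeq2 size factors, 4153 without the filter, 5018 with only the libraries compared, and 5715 with MEFs of all genotypes as reference. Against ESCs, 2752 became between 1154 and 2361 with 1 library left out. Between cassettes, 211 became 624 without the filter on low counts and between 90 and 219 with 1 library left out. Deviations of MEF and sorted libraries with the same replicate number had correlations of 0.00715 and 0.0238 over 2 pairs. The 2 MEF libraries deviate from their mean as mirror images, so this check cannot decide on pairing. Nothing in the labels pairs the numbers, and they were not taken as pairing. With a replicate block the counts were 4301, 3132, and 267. Of 2378 values of 170 named genes under alternatives, 199 dropped out of the calls, 4 entered them, and 1 turned its direction, Xist at -0.48 with MEFs of all genotypes as reference. Of the 192 values of cassette genes, 1 was lost, Apoe with DESeq2 (-3.95, FDR = 0.0592). The cause of these shifts was not tested. The smallest called differences were 0.48 (higher) and 0.53 (lower) on the log2 scale.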
